A study of Mus musculus with 8 samples.

Results

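The genes described here encode the cornified envelope, the desmosome and the proteins that assemble, stabilise or dismantle them. They are 37 genes of the 54532 in a table of corneal RNA. They were chosen by name, with earlier results of these data known, and matched from Ensembl identifiers to symbols in an annotation of GRCm38. Naive corneas of wild-type inbred BALB/cN mice (4 corneas) and C57BL/6N mice (4 corneas) were compared. According to the study's methods the mice were male, and the age of those used for RNA is not given in the sources used here. No corneas were treated and no allele was engineered, so the groups differ by the whole genetic background of the strains, and any single locus cannot be told apart from the rest. The study looked for genes behind a locus on chromosome 17 that affects corneal lymphatic vessels, and 2 of the 37 genes, Cdsn and Dnase1l2, lie in that locus. The labels do not say whether the 4 corneas of a strain came from separate animals, so p-values measure only the spread between these corneas.

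In stratified epithelia that cornify, such as epidermis, keratinocytes that approach the surface replace their plasma membrane by a cornified envelope. It is a shell of precursor proteins (involucrin, loricrin, small proline-rich proteins) that transglutaminases cross-link onto a scaffold of the plakins envoplakin and periplakin. Desmosomes hold the cells together through cadherins of the desmoglein and desmocollin families, whose tails bind plakoglobin, plakophilins and desmoplakin, which in turn anchors keratin filaments. The corneal epithelium is stratified but does not normally cornify, although it makes many of these proteins.

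The values are regularized log (rlog) values, which are normalized for library size and on a log2 scale, and they shrink the differences of weakly expressed genes towards 0. Differences are given as BALB/cN minus C57BL/6N. The table holds no read counts, so the depth behind each value is unknown. Of the 37 genes, Hrnr, Sprr1b, Sprr3, Sprr4 and Klk5 were listed at 0 in all 8 corneas. Flg2, Sprr2h, Krtdap and Klk7 had a mean rlog value below 0 and were not tested, which left 28. The mean rlog value of 10 corneal epithelium genes (Krt12, Pax6 and others) lay between 15.68 and 15.89 in every cornea. Of the 10, 1 was called (10%, beside 5.74% of all genes tested), the adhesion molecule Epcam, which was higher in BALB/cN by 0.73 (limma adjusted p = 3.82e-05). Corneas differed in other tissue. BALB/cN replicate 2 and C57BL/6N replicates 3 and 4 were low in transcripts of stromal keratocytes (mean of 10 genes 11.14 to 11.69, against 13.12 to 13.83 in the other 5), and BALB/cN replicates 1 and 4 were rich in lens transcripts (8.13 and 7.38, against 5.41 to 6.07). In such bulk RNA, fewer cells of a type and less RNA per cell cannot be told apart.

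Most of the genes tested had lower values in BALB/cN corneas. The difference was below 0 in 25 of the 28, with a median of -0.24, whereas over all 25402 genes tested 47.2% were lower and the median was 0.01. At an adjusted p of 0.01 or less (limma with Benjamini-Hochberg adjustment over all genes tested), 7 were called and all 7 were lower: Cdsn, Sprr1a, Tgm1, Tgm5, Dnase1l2, Dsg1a and Dsg2. That is 25% of those tested, beside 5.74% of all genes called in either direction, 2.91% called lower and 2.83% called higher. Of the protein-coding genes tested, 7.17% were called. With a stricter filter on the mean 8.30% of all genes were called, and the same 7 of the genes described here. The genes were chosen with earlier results of these data known, so these shares are no test of the set. All 4 BALB/cN values lay below all 4 C57BL/6N values in 11 of the 28 (39.3%), and in none did they lie above, beside 18.3% of all genes separated in either direction and 9.58% with BALB/cN below. At an adjusted p of 0.05, 9 were called, beside 11.2% of all genes. Without the 2 genes of the chromosome 17 locus, 5 of 26 were called (19.2%), 9 were separated and the median stayed at -0.24. The number called depended on which corneas entered the fit, and so did the share called over all genes. Without the corneas rich in lens transcripts 3 were called (Tgm1, Tgm5 and Cdsn), beside 1.76% of all genes. Without BALB/cN replicate 3 there were 4, beside 3.83%, and without the corneas low in stromal transcripts 5, beside 3.35%. The number was 0 when p-values were recalibrated to an empirical null, under which no gene of the table was called. The study recalibrated the p-values of its count model by another method, and at its threshold called Cdsn and Dnase1l2 lower in BALB/cN.

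**Figure D1:**
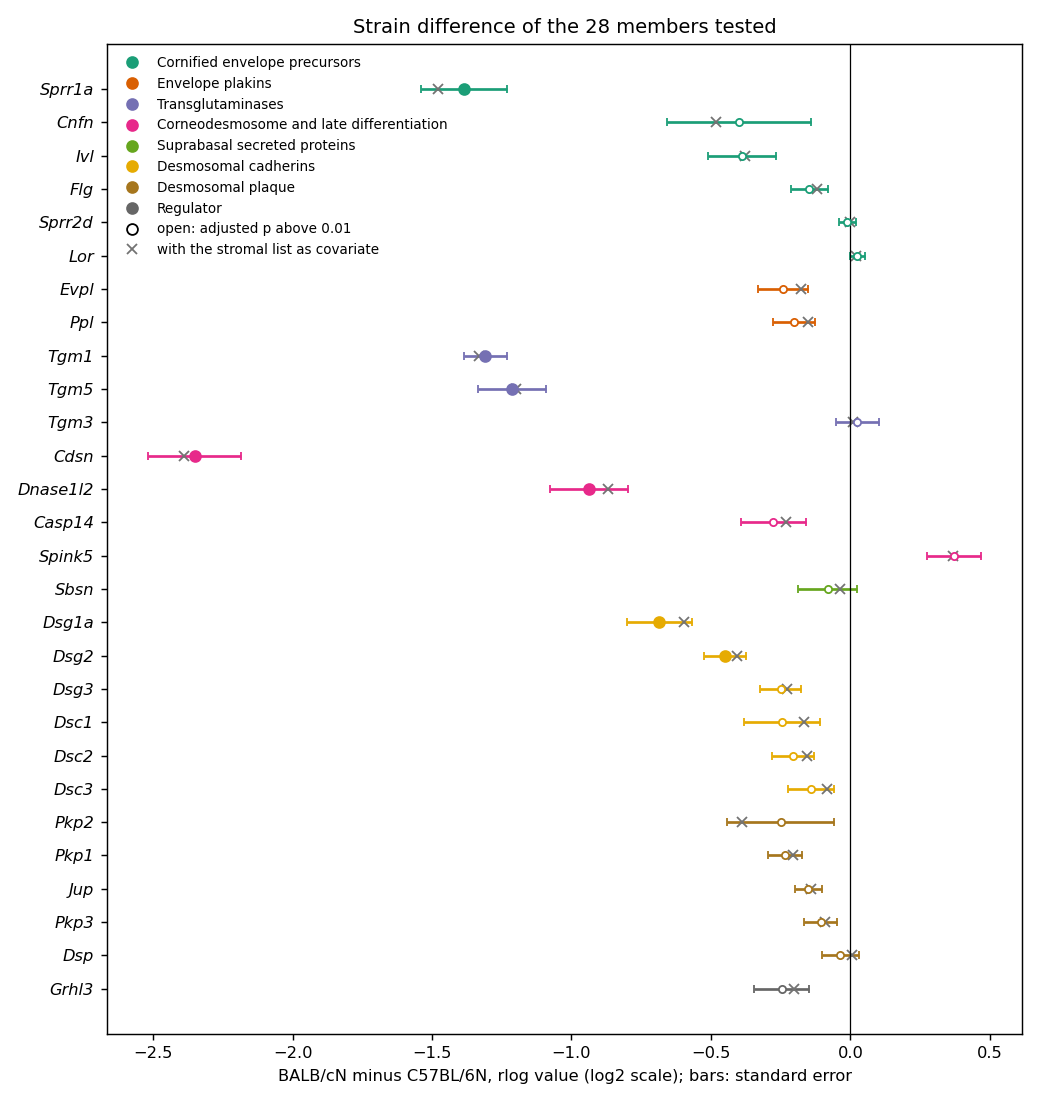
Strain difference (x axis, BALB/cN minus C57BL/6N on the rlog scale, log2) of the 28 genes tested (y axis), coloured by role. Points are the differences with their standard errors, filled where the adjusted p was 0.01 or less, and crosses are the differences with the stromal list as a covariate. Cdsn (-2.35) lies farthest to the left, all 13 desmosome and plakin genes lie left of 0, and Spink5 (0.37) lies farthest to the right.

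Promoter sequences are shown for the 4 genes that differed by more than 1 on the rlog scale and for Ivl, which shares with Sprr1a the epidermal differentiation complex on chromosome 3, a cluster of envelope genes. Each runs from 250 bases before to 50 bases after a RefSeq start site (GRCm38.p6), 5′ to 3′ on the strand of the gene, with motif matches in capitals.
Sprr1a: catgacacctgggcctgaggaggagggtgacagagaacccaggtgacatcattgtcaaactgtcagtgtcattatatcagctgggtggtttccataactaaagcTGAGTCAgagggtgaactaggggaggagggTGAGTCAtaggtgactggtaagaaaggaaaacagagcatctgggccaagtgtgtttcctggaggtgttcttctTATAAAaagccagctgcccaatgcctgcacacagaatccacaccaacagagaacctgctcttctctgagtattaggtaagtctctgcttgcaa
Ivl: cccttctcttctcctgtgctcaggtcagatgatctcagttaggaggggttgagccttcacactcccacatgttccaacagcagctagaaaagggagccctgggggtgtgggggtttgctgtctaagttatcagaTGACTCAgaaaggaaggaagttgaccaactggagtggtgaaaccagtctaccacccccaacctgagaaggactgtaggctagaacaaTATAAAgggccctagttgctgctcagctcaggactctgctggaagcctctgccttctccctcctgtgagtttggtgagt
Tgm1: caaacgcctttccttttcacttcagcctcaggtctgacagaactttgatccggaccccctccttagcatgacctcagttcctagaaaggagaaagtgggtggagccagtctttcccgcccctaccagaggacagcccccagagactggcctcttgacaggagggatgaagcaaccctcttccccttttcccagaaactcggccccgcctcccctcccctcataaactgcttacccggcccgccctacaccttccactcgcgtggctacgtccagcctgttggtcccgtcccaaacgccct
Tgm5: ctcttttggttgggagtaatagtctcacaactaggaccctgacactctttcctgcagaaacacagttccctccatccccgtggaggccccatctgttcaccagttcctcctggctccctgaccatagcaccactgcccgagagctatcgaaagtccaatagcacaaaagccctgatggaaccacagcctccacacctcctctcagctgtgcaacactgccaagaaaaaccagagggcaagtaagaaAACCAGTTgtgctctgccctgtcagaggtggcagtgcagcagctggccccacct
Cdsn: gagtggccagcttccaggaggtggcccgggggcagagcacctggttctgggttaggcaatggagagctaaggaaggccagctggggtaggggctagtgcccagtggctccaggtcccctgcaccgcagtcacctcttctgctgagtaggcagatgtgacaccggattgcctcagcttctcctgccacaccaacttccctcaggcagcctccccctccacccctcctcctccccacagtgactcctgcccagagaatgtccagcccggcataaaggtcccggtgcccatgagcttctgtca
The windows are chr3:92485832-92486131 (minus strand) for Sprr1a, chr3:92573686-92573985 (minus) for Ivl, chr14:55713443-55713742 (minus) for Tgm1, chr2:121085792-121086091 (minus) for Tgm5 and chr17:35551878-35552177 (plus) for Cdsn. The motifs searched were the AP-1 site TGANTCA and the core bound by grainyhead-like factors AACNNGTT, both on either strand, and the TATA box TATAAA on the strand of the gene. None of the matches printed overlap. The Sprr1a window held AP-1 letters 146 and 116 bases before the start and a TATA box 43 bases before it. In Ivl the AP-1 letters also began 116 bases before the start, with a TATA box at 29 bases. In Tgm5 a grainyhead-like core began 4 bases before the start and ran across it, and neither Tgm1 nor Cdsn held any of the 3 motifs.

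Of the genes described here, 25 had a window that was searched. Evpl, Ppl, Pkp1, Pkp2 and Pkp3 had no entry, and the other 7 were not searched. An arrangement of AP-1 letters with a TATA box was frequent but not general among the 11 genes of the epidermal differentiation complex. AP-1 letters stood in 8, a TATA box in 9 and both in 7 (63.6%). Among the other 14 windows 1 held both, that of Krtdap, and among all 32851 RefSeq windows 327 did (0.995%). Singly, AP-1 letters were present in 7.81%, the TATA box in 8.32% and the grainyhead-like core in 4.20% of all windows. The arrangement was found at clear and at low expression alike. It was present in Sprr1a and Ivl, in Lor and Sprr2d, whose values were near the floor, and in Sprr1b, which was listed at 0. A match is a stretch of letters and not a measured binding site.

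**Figure D2:**
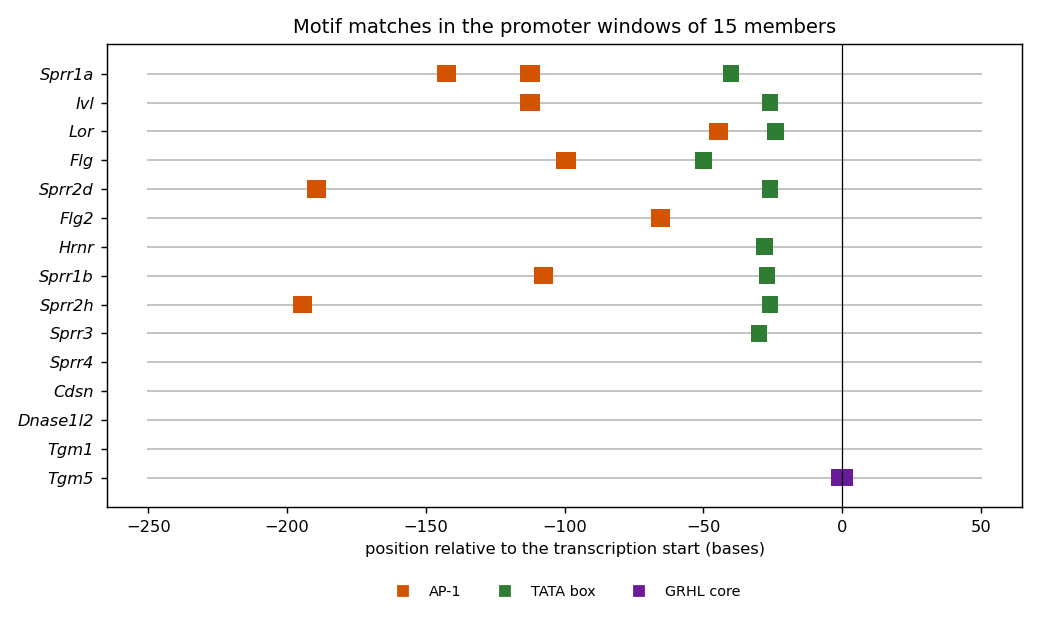
Motif matches (coloured blocks) in the promoter windows of 15 genes (y axis), by position relative to the transcription start (x axis, bases). The upper 11 genes belong to the epidermal differentiation complex, where AP-1 letters stand in 8 windows and a TATA box in 9; Sprr4, Cdsn, Dnase1l2 and Tgm1 hold no match.

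Among the envelope precursors, 12 genes in all, 6 were tested and 1 passed the test (16.7%, beside 5.74% of all genes tested). Sprr1a (ENSMUSG00000050359, chromosome 3, 92483952 to 92485895, minus strand, GRCm38) encodes a small proline-rich protein that transglutaminases join into the envelope. Its rlog values were 8.65, 8.61, 8.96 and 8.77 in the BALB/cN corneas and 10.29, 10.52, 9.81 and 9.91 in the C57BL/6N corneas. Every BALB/cN cornea lay below every C57BL/6N cornea, and in C57BL/6N the corneas low in stroma were the lower ones. The difference was -1.38 ± 0.154 (SE, 4 corneas per strain), a 2.61-fold lower value on this scale (limma adjusted p = 0.000368; exact two-sided permutation p = 0.0286, the smallest that 4 against 4 corneas can give). With the replicate number as a block the difference was again -1.38 but missed the threshold (limma adjusted p = 0.0103), and so did -1.35 without the lens-rich corneas (limma adjusted p = 0.0189).

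The other precursors did not pass. Ivl (involucrin) stood lower by -0.39 with separated strains (8.34 to 8.85 against 8.93 to 9.23), and its limma adjusted p was 0.0790. Cnfn (cornifelin, an envelope component) differed by -0.40, with BALB/cN values of 9.43, 9.66, 10.49 and 10.57, of which the first 2 lay below and the others within the C57BL/6N range (10.27 to 10.85). Flg (filaggrin precursor) differed by -0.15. Lor (loricrin) and Sprr2d differed by 0.03 and -0.01 at levels near the floor, below 1 in all corneas. Loricrin is the main envelope protein of epidermis, whereas the precursors well above the floor in these corneas were Cnfn, Sprr1a and Ivl.

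Of the transglutaminases, the enzymes that cross-link the envelope, 2 of 3 were called lower in BALB/cN, beside 2.91% of all genes tested. Tgm1 (ENSMUSG00000022218, chromosome 14, 55700009 to 55713926, minus strand), the membrane-bound keratinocyte enzyme, had rlog values of 9.36, 9.14, 9.34 and 9.50 in BALB/cN and 10.60, 10.68, 10.63 and 10.67 in C57BL/6N. The C57BL/6N corneas were almost level with each other and all stood more than 1 unit above the highest BALB/cN cornea. The difference was -1.31 ± 0.0764 (SE), 2.48-fold on this scale (limma adjusted p = 5.20e-06; exact permutation p = 0.0286).

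Tgm5 (ENSMUSG00000053675, chromosome 2, 121046111 to 121085841, minus strand), a transglutaminase of the upper epidermis, had values of 7.98, 7.78, 7.98 and 8.19 in BALB/cN and 9.26, 8.88, 9.36 and 9.27 in C57BL/6N. Again the strains did not overlap. Its difference was -1.21 ± 0.122 (SE), 2.32-fold on this scale (limma adjusted p = 0.000186; exact permutation p = 0.0286). Tgm3, which acts in hair and late epidermis, was weakly expressed (4.39 to 4.63) and differed by 0.03, a sign that turned under centring on the median (-0.05) and quantile normalization (-0.01). Tgm1 and Tgm5 passed the test without any single cornea, with differences between -1.36 and -1.24 and between -1.32 and -1.14. About 5.76% of the exon length of Tgm1 overlaps Gm49067 on the opposite strand, and whether reads were counted by strand is not given in the sources used here.

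**Figure D3:**
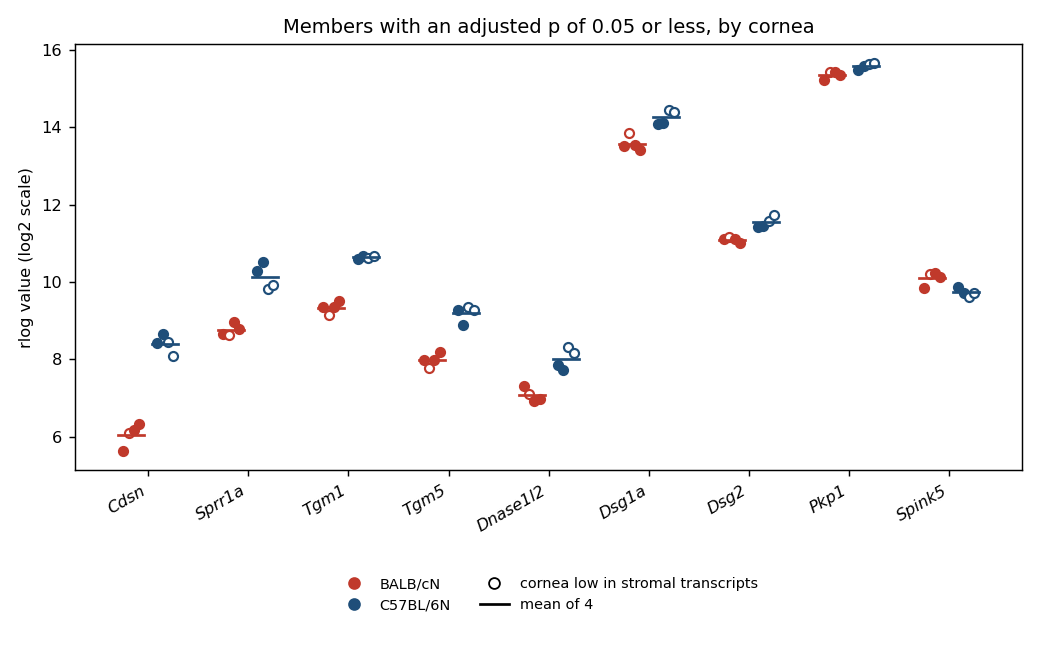
The rlog values (y axis, log2 scale) in each cornea of the 9 genes with an adjusted p of 0.05 or less (x axis). Points are corneas, open where low in stromal transcripts, and lines are the means of 4. In Cdsn, Sprr1a, Tgm1, Tgm5, Dnase1l2, Dsg1a, Dsg2 and Pkp1 all BALB/cN points lie below all C57BL/6N points, and Spink5 overlaps.

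The genes of the corneodesmosome and of late differentiation held the widest difference. Cdsn (corneodesmosin, ENSMUSG00000039518, chromosome 17, 35552128 to 35557180, plus strand) encodes an adhesive glycoprotein of the modified desmosomes of cornifying cells. Its rlog values were 5.63, 6.08, 6.16 and 6.33 in BALB/cN and 8.42, 8.66, 8.45 and 8.08 in C57BL/6N. A gap of 1.75 separated the highest BALB/cN cornea from the lowest C57BL/6N cornea. The difference was -2.35 ± 0.166 (SE), 5.10-fold on this scale (limma adjusted p = 1.86e-05; exact permutation p = 0.0286). It ranged from -2.46 to -2.21 when each cornea was left out in turn, and passed the test each time.

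Dnase1l2 (ENSMUSG00000024136, chromosome 17, 24440081 to 24443105, minus strand), a DNase that helps to degrade nuclear DNA in cornifying cells, was the other gene of the locus. Values were 7.30, 7.09, 6.93 and 6.98 in BALB/cN and 7.84, 7.73, 8.31 and 8.16 in C57BL/6N. The strains were separated, and in C57BL/6N the corneas low in stroma were the higher ones. The difference was -0.94 ± 0.141 (SE), 1.91-fold on this scale (limma adjusted p = 0.00226; exact permutation p = 0.0286), and -0.72 without the corneas low in stromal transcripts (limma adjusted p = 0.0250). It also missed the threshold without BALB/cN replicate 3 (-0.89, limma adjusted p = 0.0102) and without the lens-rich corneas (-0.9998, limma adjusted p = 0.0278).

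Spink5 encodes LEKTI, an inhibitor of the kallikreins that digest corneodesmosomes, and was the only gene of the 28 above 0 by more than 0.03. Its values were 9.85, 10.21, 10.24 and 10.12 in BALB/cN and 9.87, 9.72, 9.61 and 9.71 in C57BL/6N. BALB/cN replicate 1 fell within the C57BL/6N range and the other 3 stood above it. The difference of 0.37 ± 0.0957 (SE) missed the threshold of 0.01 (limma adjusted p = 0.0351), and passed without BALB/cN replicate 1 (0.46, limma adjusted p = 0.00855). Of the targets of LEKTI among these genes, Klk5 was listed at 0 and Klk7 lay below 0 in every cornea. Casp14, a caspase of cornification, differed by -0.28 without passing, from values of 8.15 to 8.37 in BALB/cN and 8.17 to 8.67 in C57BL/6N. Sbsn (suprabasin, a secreted suprabasal protein) was 7.82, 7.89, 7.66 and 7.57 in BALB/cN and 7.70, 7.76, 8.04 and 7.76 in C57BL/6N, with a difference of -0.08 and overlapping strains.

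The 11 desmosomal genes and the 2 envelope plakins all had lower values in BALB/cN. The median difference of the 13 was -0.23, and 2 of the 13 (15.4%) passed the test, beside 5.74% of all genes tested. Both were cadherins of chromosome 18. Dsg1a (ENSMUSG00000069441, 20310811 to 20343350, plus strand), a desmoglein of the upper epithelial layers, had values of 13.50, 13.86, 13.53 and 13.40 in BALB/cN and 14.08, 14.10, 14.46 and 14.40 in C57BL/6N. The strains were separated, and within each strain the corneas low in stroma were the highest. The difference was -0.68 ± 0.117 (SE), 1.61-fold on this scale (limma adjusted p = 0.00479; exact permutation p = 0.0286). Of its 50-base words, 31.6% also occur in the neighbouring paralogue Dsg1b, so that reads of the pair may be split or lost in counting. Dsg1b itself was lower by -0.38 (limma adjusted p = 0.00868).

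Dsg2 (ENSMUSG00000044393, 20558074 to 20604521, plus strand), a desmoglein of simple epithelia and basal layers, was 11.11, 11.16, 11.10 and 11.02 in BALB/cN and 11.41, 11.44, 11.59 and 11.74 in C57BL/6N. No values overlapped. The difference was -0.45 ± 0.0759 (SE), 1.37-fold on this scale (limma adjusted p = 0.00440; exact permutation p = 0.0286). Both desmoglein calls were lost after centring the corneas on their medians, although the differences were then wider (Dsg1a -0.76, Dsg2 -0.52), and both were kept under quantile normalization. With the replicate number as a block the limma adjusted p-values were 0.0385 and 0.0412, and Dsg1a missed narrowly with no variance trend (0.0101). Each call was also lost in 5 of the 8 fits that left out 1 cornea, with limma adjusted p-values between 0.00205 and 0.0205 for Dsg1a and between 0.00495 and 0.0175 for Dsg2 over those 8 fits. Dsg2 also missed without the corneas low in stroma (-0.35, limma adjusted p = 0.0110), and without the lens-rich corneas Dsg1a (-0.56) and Dsg2 (-0.42) both did. The other cadherins were lower by -0.25 (Dsg3, strains separated, limma adjusted p = 0.0595), -0.24 (Dsc1), -0.21 (Dsc2) and -0.14 (Dsc3), and none of these passed.

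In the plaque beneath the cadherins no gene passed limma's threshold of 0.01, and 2 of 5 had an unadjusted p under 0.05, beside 23.7% of all genes tested. Pkp1 (plakophilin 1) came closest, at 15.22, 15.42, 15.44 and 15.35 in BALB/cN and 15.48, 15.60, 15.64 and 15.65 in C57BL/6N. The strains were separated by a narrow gap, with a difference of -0.23 ± 0.0602 (SE; limma adjusted p = 0.0359). Jup (plakoglobin) was also separated, with a difference of -0.15 and a limma adjusted p of 0.0798. Pkp2 was 7.78, 7.14, 7.42 and 7.83 in BALB/cN and 8.17, 7.95, 7.54 and 7.51 in C57BL/6N, a difference of -0.25 with wide overlap. Pkp3 differed by -0.11 and Dsp (desmoplakin) by -0.04, the latter with a sign that turned under quantile normalization (0.05) and with the stromal covariate (0.01).

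Of the plakins, Evpl (envoplakin) was 16.38, 16.54, 16.50 and 16.34 in BALB/cN and 16.54, 16.50, 16.87 and 16.81 in C57BL/6N, with a difference of -0.24 (limma adjusted p = 0.133). Ppl (periplakin) differed by -0.20. Neither plakin passed, and both had an unadjusted limma p under 0.05. In both, the 2 C57BL/6N corneas low in stroma stood clearly above the rest. Grhl3, a grainyhead-like transcription factor required for the epidermal barrier, was 11.62, 11.93, 11.98 and 11.96 in BALB/cN and 12.09, 11.93, 12.14 and 12.30 in C57BL/6N, a difference of -0.25 with overlap (limma adjusted p = 0.165).

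Levels were compared between genes as the mean rlog value less the log2 of the exon length in kb. By this measure 10 of the 13 desmosome and plakin genes took the first 10 places. Dsp stood at 14.92, Ppl at 14.12, Evpl at 13.89, Jup at 13.31 and Pkp1 at 13.15, and these 5 led the 28. The other 3 desmosomal genes lay further down, Dsg2 at 8.27, Pkp2 at 5.24 and Dsc1 at 3.12. Of the called genes outside the desmosome, Sprr1a stood at 9.75, Tgm1 at 8.33, Tgm5 at 6.93, Dnase1l2 at 6.32 and Cdsn at 5.81, and Lor (-0.07) and Flg (-0.99) came last. Neighbours in this order were not compared by a test.

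Within each strain, the desmosome genes were higher in the corneas low in stroma. Within BALB/cN, replicate 2 was compared with the other 3 corneas, and within C57BL/6N, replicates 3 and 4 with replicates 1 and 2. Of the 13 desmosome and plakin genes, 12 were higher in the corneas low in stroma in both strains (median 0.13 in BALB/cN and 0.18 in C57BL/6N), Pkp2 being the exception at -0.53 in each. Of the other 15 genes 5 were higher in both, and of all genes tested 31.2% were. The shift was not particular to desmosome genes. The corneal epithelium list mean was 15.89 in BALB/cN replicate 2 against 15.68 to 15.84 in the others. In C57BL/6N it was 15.81 and 15.86 in replicates 3 and 4 against 15.72 and 15.74. The list of epithelial differentiation regulators was also highest in these corneas in both strains. The list of other envelope proteins was not in BALB/cN (8.26, within 8.21 to 8.36). Dsg1a shifted by 0.38 and 0.34 and Dsc3 by 0.22 and 0.25. Cdsn moved by 0.05 and -0.27, Tgm1 by -0.26 and 0.01, and Sprr1a by -0.18 and -0.55.

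**Figure D4:**
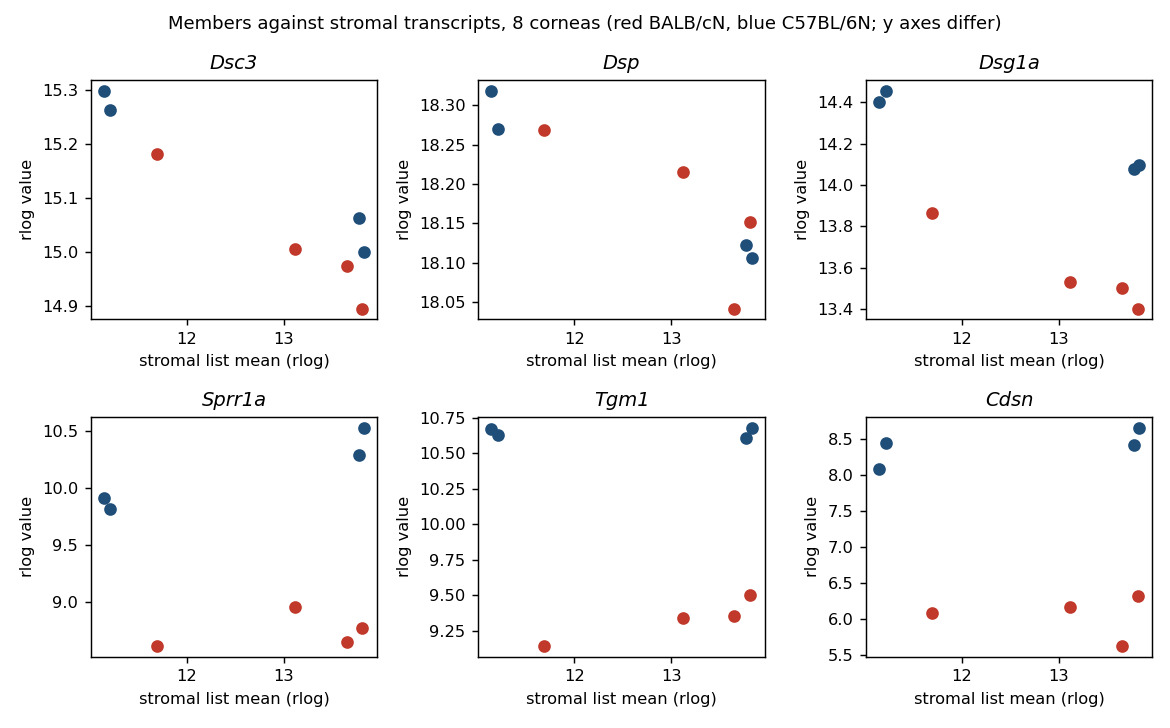
The rlog values of 6 genes (y axes, differing in range) against the mean rlog value of 10 stromal keratocyte genes (x axis) in each of the 8 corneas, red for BALB/cN and blue for C57BL/6N. Dsc3, Dsp and Dsg1a are higher in the 3 corneas low in stroma in both strains, whereas for Sprr1a, Tgm1 and Cdsn the gap between the strains is present at both ends of the x axis. The low end holds 1 BALB/cN cornea.

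Most genes had lower values in BALB/cN in both kinds of cornea, but only 1 BALB/cN cornea was low in stroma. Among the 5 corneas rich in stroma 24 of the 28 genes were lower in BALB/cN, with a median of -0.18. Among the 3 low in stroma (1 BALB/cN and 2 C57BL/6N) 25 were, with a median of -0.23. The values for the corneas low in stroma therefore have no spread within BALB/cN. Cdsn differed by -2.50 and -2.18 in these comparisons, Tgm1 by -1.24 and -1.50, Tgm5 by -1.02 and -1.54 and Sprr1a by -1.61 and -1.24. For Dsg1a the values were -0.61 and -0.57, and for Dsg2 -0.35 and -0.50. With the stromal list as a covariate 9 genes passed the test, Evpl and Pkp1 being added, and with the corneal epithelium list 11 did. Calls over all genes tested rose as well, from 5.74% to 9.52% with the stromal list and to 7.66% with the epithelial list.

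Most markers listed for another surface epithelium, the conjunctiva, were also lower in BALB/cN. Of 8 conjunctival markers, Krt13 (-2.51), Krt4 (-1.17), Krt19 (-0.97), Krt7 (-0.90) and Muc4 (-0.48) were called lower in BALB/cN (62.5%, beside 5.74% of all genes called in either direction). As a level less the log2 of the exon length in kb, Muc4 stood at 16.01, beside 11.47 for Krt13 and 18.82 for the corneal keratin Krt12. Whether Muc4 marks conjunctiva in these corneas was not tested. The mean of the list ran from 7.75 to 8.12 in BALB/cN and from 8.26 to 8.49 in C57BL/6N. The goblet cell mucin Muc5ac (2.19) and Krt8 (0.40) stood higher in BALB/cN without passing at 0.01, and Tff1 was near the floor. The part of conjunctival cells in the differences above was not tested. Genes of epidermis were uneven. Krt2 lay below 0 and Lce1a1, Lce1b and Lce1m were listed at 0 in every cornea, and Krt1 ranged from 6.78 to 7.54 and Krt10 from 7.53 to 7.99, Kprp from 8.27 to 9.38 and Asprv1 from 15.51 to 16.22. Of the 6 epidermal genes tested 1 was called, Asprv1 (16.7%, beside 5.74% of all genes tested). The list mean lay between 8.11 and 8.21 in BALB/cN and between 8.14 and 8.29 in C57BL/6N. The mean of 4 hair follicle and eyelid gland genes lay between 0.91 and 1.04 in all corneas.

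Other genes of the same pathways were taken from lists of 74 genes, of which 57 were tested. Of these, 10 were called (17.5%, beside 5.74% of all genes tested), 8 lower and 2 higher in BALB/cN. Among 11 tested kallikreins and epidermal proteases 4 were called (36.4%), and Klk11 (-1.29), Klk10 (-1.07), Klk8 (-0.65) and Prss8 (-0.40) were lower. Klk11 was 7.59, 7.70, 7.74 and 7.64 in BALB/cN and 8.99, 9.05, 8.88 and 8.90 in C57BL/6N, an even step between the strains. Among 11 genes of barrier lipids and filaggrin processing 4 were called (36.4%). The ceramide synthase Cers3 (-0.43) and the filaggrin-processing protease Asprv1 (-0.46) were lower. Padi1, a deiminase that converts arginine to citrulline in keratins and filaggrin, went the other way, at 7.75, 7.65, 7.60 and 7.60 in BALB/cN and 5.94, 6.12, 6.20 and 6.08 in C57BL/6N (difference 1.57 ± 0.0844 SE, limma adjusted p = 3.31e-06), as did the epidermal lipoxygenase Alox12b (0.54). Scel (sciellin, an envelope precursor) was lower by -0.50, the 1 gene called of 17 other envelope proteins tested (5.88%, near the share of all genes). Dsg1b was the 1 called of 6 other desmosome genes (16.7%, beside 5.74% of all genes tested). None of 12 transcription factors of epithelial differentiation was called by limma at 0.01, and 4 had an unadjusted p under 0.05, beside 23.7% of all genes tested. Of these, Klf4 (-0.25) and Grhl1 (-0.35) had limma adjusted p-values of 0.0180 and 0.0260 with separated strains.

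**Figure D5:**
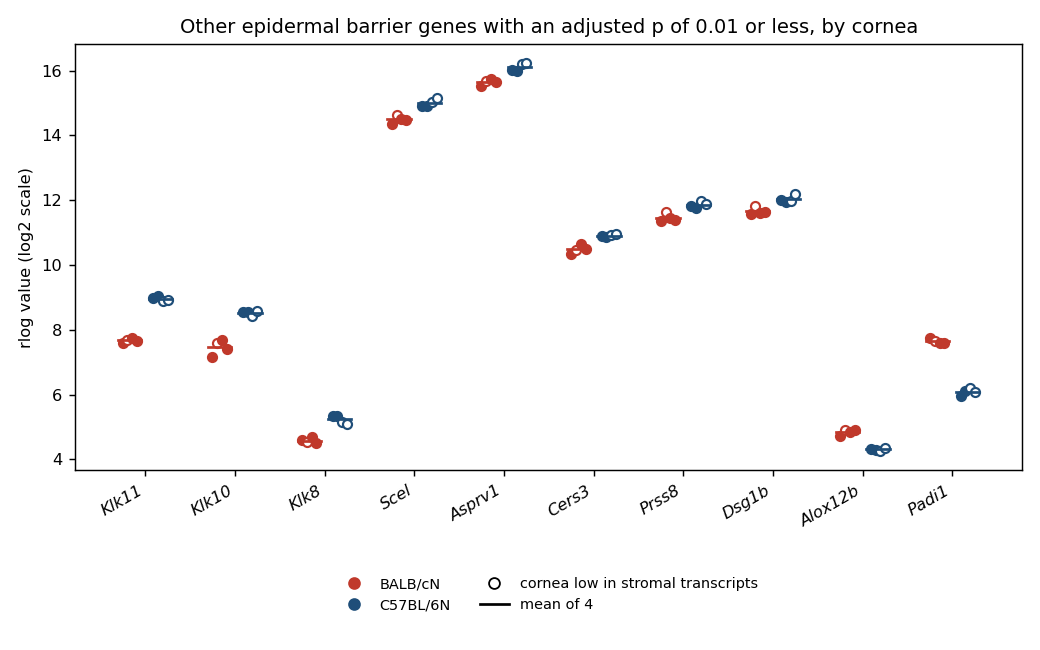
The rlog values (y axis, log2 scale) in each cornea of the 10 called genes of the other barrier lists (x axis), drawn as for the 9 genes above. BALB/cN points lie below C57BL/6N points in 8 genes, from Klk11 (-1.29) to Dsg1b (-0.38), and above them in Alox12b (0.54) and Padi1 (1.57).

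Genes next to the called ones were also examined. Counting the 3 closest protein-coding genes with a tested value to the left and to the right of each of the 7 gave 40 genes, of which 5 were called (12.5%, beside 7.17% of all protein-coding genes tested). These were Dsg1a, Dsg1b and Dsg2 beside each other, Tmem62 near Tgm5 (-0.70, limma adjusted p = 0.00476) and 2300002M23Rik near Cdsn (-0.27, limma adjusted p = 0.00626). Dsg1a and Dsg2 were themselves among the 7 and each entered as a neighbour of the other, so their calls were fixed by that choice. The 12.5% is raised by this and cannot be set against the 7.17%. No 50-base word of Cdsn, Sprr1a, Tgm1, Tgm5 or Dnase1l2 occurred in another annotated gene.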

How the data were processed

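Strand-specific libraries were sequenced from the total RNA of 8 corneas, 4 of each strain. The authors used TopHat2 2.1.1 for alignment to a version of GRCm38 adapted to each strain, counted reads over the union of exons of Ensembl genes with HTSeq 0.7.1 and transformed the counts with DESeq2 1.30. The deposited values are rlog values (log2), which the authors normalized for library size and wrote with a decimal comma; raw counts were not used here. Of 31314 genes not at 0 in all corneas, 31302 were found in a GENCODE annotation of GRCm38, which gave positions and exon lengths. The labels assigned each column to a cornea, with 0 columns left over.

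From the deposited log2 values, strain differences were fitted in limma 3.58.1 under R 4.3.3 (lmFit, eBayes with a variance trend) for the 25402 genes whose mean rlog value was at least 0, with Benjamini-Hochberg adjustment and a threshold of 0.01. limma took the place of the count model of the study because the values are not counts. For members an exact permutation test (two-sided) over the corneas was added. Tables were handled with Python 3.11.15, pandas 2.3.3 and numpy 2.4.6, and the procedure was tested on simulated data. The members, the role groups and the other lists were chosen with earlier results of these data known. A single gene of the other lists is not reported here. All members are named. Given in full are members with an adjusted p of 0.01 or less, then 0.05 or less, then the member with the largest difference in each role group; from the other lists, genes with an adjusted p of 0.01 or less are named, and of the regulators the 2 nearest to it after their values were seen. Correlations with the cell type lists were not reported because the corneas fell into clusters by stromal content, and differences between those clusters are given instead. The alternatives tried were an empirical null, stromal and epithelial covariates, median centring, quantile normalization, a fit with no variance trend, a robust one, a stricter filter on the mean and none, replicate number as a block, each cornea left out and an adjusted p of 0.05. Leaving out the corneas low in stromal transcripts and those rich in lens transcripts, and the comparison within stromal clusters, were added after seeing the data.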

Additional observations from a re-analysis of the deposited data

Results flagged for a closer look

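In 5 of 56 groups of 4 corneas (28 genes in each strain), the highest or lowest cornea stood apart from the other 3 by Dixon's test, where chance alone sets apart about 1 group in 20, or 2.8 groups. Sprr2d was set apart in BALB/cN (gap over range 0.996) and in C57BL/6N (0.998), each time by replicate 3, at 0.29 and 0.34 against 0.22 in the others, a level near the floor. Cnfn was set apart in C57BL/6N (0.898) by replicate 1, at 10.85 against 10.33 in the next cornea. Sbsn was set apart in C57BL/6N (0.839) by replicate 3, at 8.04 against 7.76. Grhl3 was set apart in BALB/cN (0.849) by replicate 1, at 11.62 against 11.93. None of the 7 called genes was set apart in either strain.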

How the results depend on the processing

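Tgm1, Tgm5 and Cdsn passed the threshold under every alternative run except the empirical null. The number of members called, 7, was 0 with the empirical null, 11 with the epithelial covariate, 3 with the replicate block, 3 without the corneas rich in lens transcripts, and 4 to 7 when each cornea was left out in turn. The number of genes called, 1458, was 0 with the empirical null (1732 at an unadjusted p under 0.05, against 6009), 958 with median centring, 554 with the replicate block, 2418 with the stromal covariate, 852 without the corneas low in stroma, 447 without the lens-rich corneas, 2842 at an adjusted p of 0.05 and 953 to 1163 when each cornea was left out. Median centring moved the share of higher calls from 49.2% to 43.1% and the median of all genes to -0.07. Limma adjusted p-values with the empirical null were 0.232 for Cdsn (-2.35) and 0.493 for Dnase1l2 (-0.94). Dnase1l2 also missed with the replicate block (-0.94, limma adjusted p = 0.0283), without the corneas low in stroma (-0.72) and without the lens-rich corneas (-0.9998), and ranged from -1.03 to -0.84 when each cornea was left out. Cdsn ranged from -2.46 to -2.21. Sprr1a missed with the replicate block (limma adjusted p = 0.0103) and without the lens-rich corneas (0.0189). The median difference moved to -0.16 without the lens-rich corneas, and without Cdsn and Dnase1l2 it moved to -0.15 there and to -0.15 without the corneas low in stroma; leaving out each cornea gave -0.27 to -0.19 and -0.26 to -0.18. Members near 0 changed sign: Lor to -0.0486 with centring; Tgm3 to -0.0484 with centring, -0.00853 with quantile normalization and -0.0127 without the corneas low in stroma; Sprr2d to 0.0239 without those corneas and 0.00718 without the lens-rich ones; and Dsp to 0.0470 with quantile normalization, 0.00616 with the stromal covariate, 0.0215 without the corneas low in stroma and 0.0372 without the lens-rich ones. Leaving out each cornea gave -0.0141 to 0.05002 for Tgm3, -0.0289 to 0.0178 for Sprr2d and -0.0685 to 0.00722 for Dsp. The replicate block rests on numbers that do not pair corneas: deviations of same-numbered corneas correlated at 0.31, -0.53, -0.20 and -0.45. Fits with a block or fewer corneas also have fewer degrees of freedom. The cause of these changes was not tested. Depth is unknown, and rlog values understate differences of weakly expressed members.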
